A study of Petunia x hybrida with 8 samples.

Results

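The subject here is the set of ChIP peaks that lie on scaffolds of the petunia assembly carrying no gene ID. They were chosen by name alone: a peak belongs when its scaffold is not the part before the g or t number of any of the 35812 IDs in the deposited count table. By this rule 18692 of 201764 peaks were members, on 7964 of the 9474 scaffolds with a peak. The pODO1 list held 9047 of them among 98009 peaks (9.23%, 95% Wilson interval 9.05 to 9.41). The 35S list held 9645 among 103755 peaks (9.30%, 9.12 to 9.47). All other peaks, 88962 in the pODO1 list and 94110 in the 35S list, lay on 1510 scaffolds with a gene ID.

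The study is on ODO1 (ODORANT1), a MYB transcription factor, in petals of Petunia x hybrida, sampled as corolla. In 2 libraries, 1 titled pODO1-ChIP and 1 titled 35S-ChIP, crosslinked chromatin was pulled down with a GFP antibody. The names of the lists match these titles and hold ODO1 as well. The sources used here give no strain, age or transgene design, and whether both lists share plants, a control or an input is not given either. The 6 RNA libraries of the study, 3 of odo1i and 3 of wild type corolla, entered only through their gene IDs.

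ODO1 is known as an activator of genes of the shikimate and phenylpropanoid pathways, from which the benzenoid scent of the petunia flower is made. In names of this kind pODO1 is usually the gene's own promoter, and 35S is a promoter of a plant virus that is active in most tissues. A scaffold is a stretch of a draft assembly. One without an annotated gene can be a fragment, an intergenic stretch or repeated sequence, and which of these holds here was not analysed. Scaffold sequences were likewise not used here, so no bases are printed.

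Most of these scaffolds were very short as far as the peaks show. Scaffold lengths were not used here, so the last peak end in either list, called span here, stands for it and is a lower bound. The span had a median of 284 bases (10th to 90th percentile 155 to 2349 bases) on scaffolds without a gene ID, against 542236 bases (60929 to 1742478 bases) on scaffolds with one. Scaffolds without a gene ID spanned 22021 kb in all, against 1173277 kb for those with one. Of the 7964 scaffolds 6507 spanned under 1 kb, 941 spanned 1 to 5 kb, 301 spanned 5 to 20 kb, 174 spanned 20 to 100 kb and 41 at least 100 kb. The longest spanned 565754 bases and the shortest 92. The class under 1 kb held 4513 pODO1 peaks (49.9%) and 5361 35S peaks (55.6%), and the class of at least 100 kb held 1266 (14.0%) and 1155 (12.0%).

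Each construct has 1 library, and peaks of 1 library are not replicates. No test was therefore made between groups of peaks or between the lists, and intervals cover counting error only. Differences below are descriptions, given beside the same measure on scaffolds with a gene ID.

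Peaks on scaffolds without a gene ID were stronger by the authors' fold enrichment, the ratio of a peak's signal to the peak caller's local background. In the pODO1 list the median was 4.57 (quartiles 3.72 and 5.57; 95% interval of the median 4.52 to 4.60), against 4.28 (3.63 and 4.95) on scaffolds with a gene ID. In the 35S list it was 3.95 (quartiles 3.18 and 4.86; 95% interval 3.87 to 3.96), against 3.67 (3.13 and 4.29). The lower quartiles lay close together and the upper quartiles apart. The −log10 q, which also grows with the number of reads, was 5 or more for 63.4% of these pODO1 peaks, where 38.8% of the whole list reached it, and for 56.6% of these 35S peaks, where 34.1% of the list did.

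The higher median fold enrichment came with the shortest scaffolds. On scaffolds spanning under 1 kb the pODO1 median was 4.94 (95% interval 4.94 to 4.98) and the 35S median 4.21 (4.17 to 4.32). On those spanning at least 5 kb the pODO1 median was 4.20 (4.16 to 4.27) without a gene ID, against 4.28 with one. The 35S median was 3.54 (3.51 to 3.56) without a gene ID, against 3.67 (3.66 to 3.68). The direction thus turned round in both lists at this cut, but 98.9% of peaks with a gene ID lay at 100 kb or more. By class the pODO1 medians were 4.16, against 4.35 (50 peaks), at 5 to 20 kb and 4.19, against 4.17, at 20 to 100 kb. At 100 kb or more they were 4.23 (4.17 to 4.29), against 4.28. The 35S medians were lower without a gene ID in each of these classes. For pODO1 the turn did not hold in every class. Scaffolds with a gene ID and a span under 1 kb held only 13 pODO1 and 16 35S peaks, with medians of 4.89 and 3.74, so short scaffolds could hardly be compared at a matched span.

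**Figure D1:**
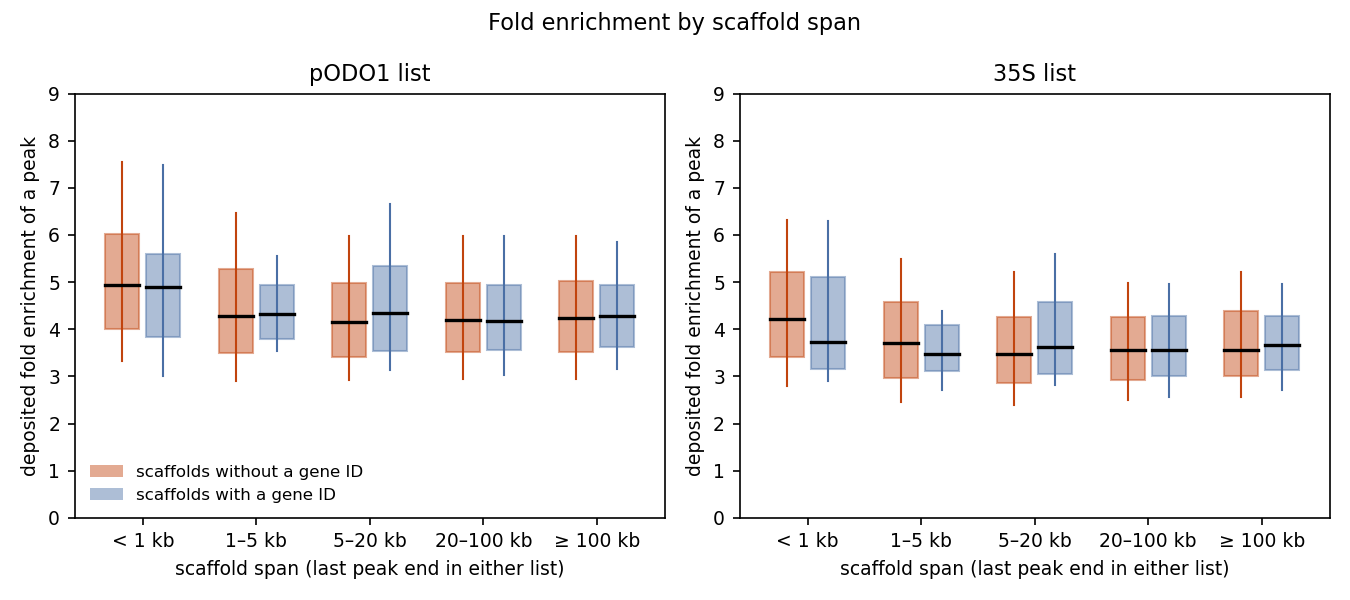
Deposited fold enrichment of peaks (linear axis) by scaffold span, with pODO1 at left and 35S at right; boxes span the quartiles, black lines are medians and thin lines run from the 10th to the 90th percentile over peaks. On scaffolds without a gene ID the median is 4.94 (pODO1) and 4.21 (35S) under 1 kb, while at 20 to 100 kb both groups sit at 4.19 against 4.17 (pODO1) and 3.55 against 3.57 (35S).

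What lies under the ratio could be read from the lists. MACS2 computes fold enrichment as the pileup plus 1 over the background plus 1, and p as the Poisson tail of the pileup. The deposited fold enrichment and −log10 p of a peak were solved together for a whole-number pileup (the ChIP reads or fragments stacked over the summit) and the local background expected there. A whole number matched both values within 0.0002 on the −log10 p scale for all 98009 pODO1 and all 103755 35S peaks, and a second whole number matched at only 2 peaks. The pileup ran from 7 to 192 in the pODO1 list and from 9 to 180 in the 35S list. The lowest background, which acts as a floor for a whole list, was 1.51 for pODO1 and 2.65 for 35S. Depth of the libraries themselves is unknown, so a pileup is compared only within its list.

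Both numbers were higher on scaffolds without a gene ID. The median pODO1 pileup was 18 (quartiles 13 and 29), against 13 (11 and 17) with a gene ID, and the median background 3.11, against 2.03. In the 35S list the pileup was 22 (quartiles 17 and 32), against 16 (14 and 21), and the background 4.56, against 3.69. Unlike the higher fold enrichment, this difference remained on longer scaffolds. At a span of at least 5 kb the median pODO1 pileup was 19, against 13, over a background of 3.66, against 2.03. The 35S pileup there was 23, against 16, over a background of 5.32, against 3.69.

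Among the span classes that of 20 to 100 kb was the most even in number, with 174 scaffolds without and 144 with a gene ID. Spans were not equal within it, at 7154 kb in all without a gene ID, against 8390 kb with one. Per scaffold with at least 5 pODO1 peaks, the median pileup had a median of 18.5 over 95 scaffolds (lowest 10.5, highest 39.5), against 14.5 over 81 (9.5 to 36). For 35S it was 22.5 over 95 scaffolds (12 to 50), against 18.5 over 77 (13 to 39). The ranges overlapped widely. Medians of fold enrichment were alike there, 4.20 against 4.11 for pODO1 and 3.49 against 3.60 for 35S, on the same scaffolds.

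**Figure D2:**
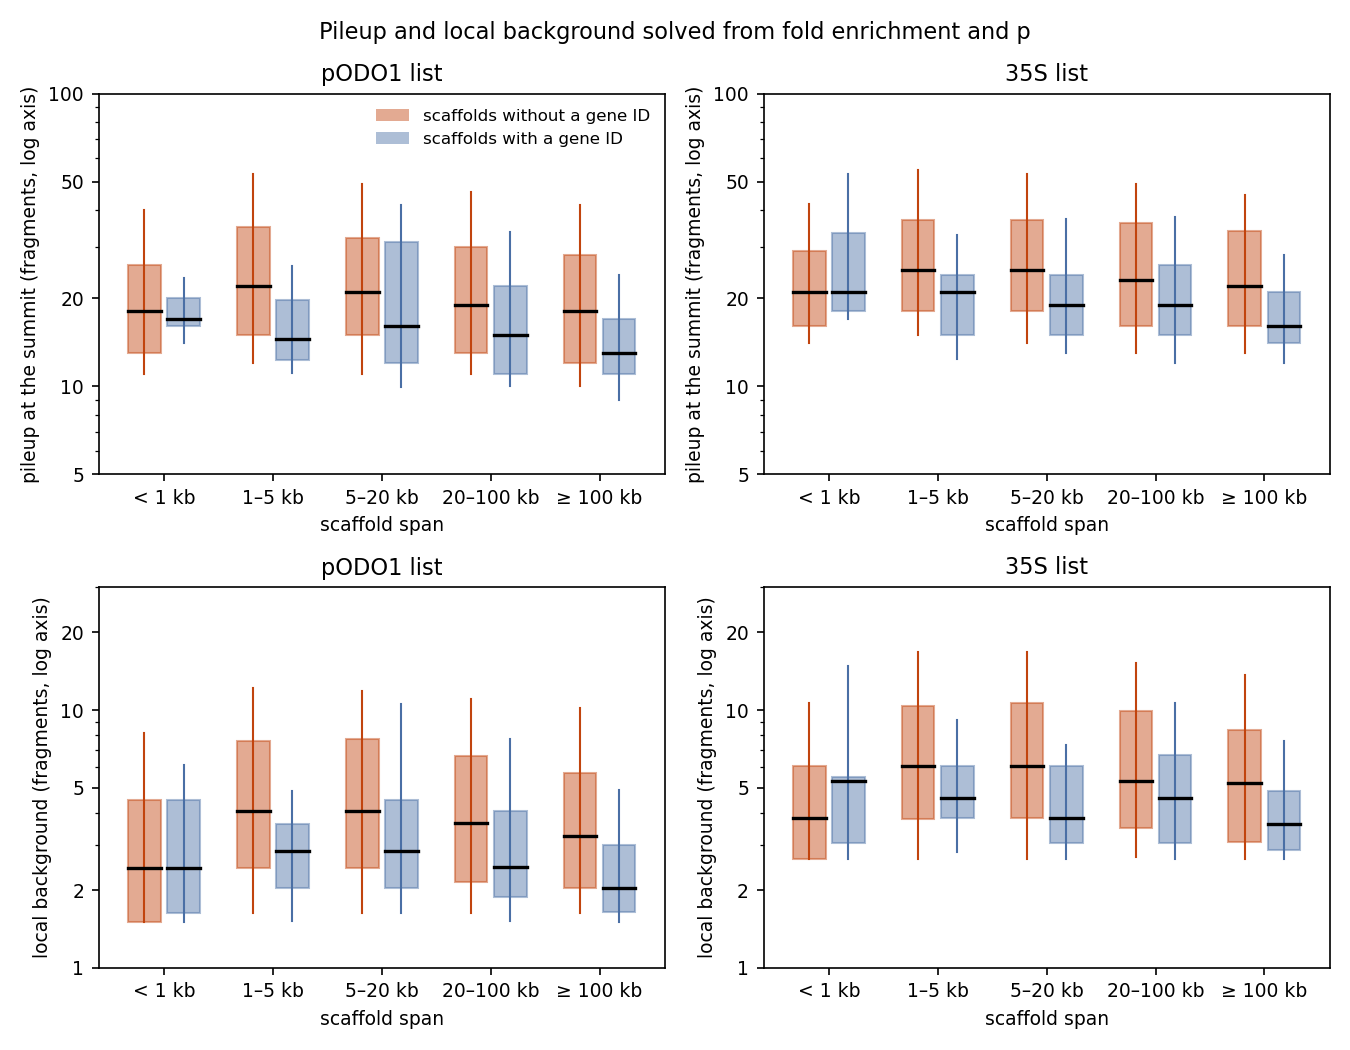
Pileup at the summit (top) and local background (bottom), both on log axes, by scaffold span for the pODO1 list (left) and the 35S list (right), drawn with quartile boxes, median lines and 10th to 90th percentile lines over peaks. From 1 kb upward both the pileup and the background medians are higher on scaffolds without a gene ID, for example 18 against 13 in pileup for pODO1 at 100 kb or more.

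On the shortest scaffolds the background was lower than on longer ones. Under 1 kb the median background was 2.44 for pODO1 and 3.80 for 35S, while at 1 to 5 kb it was 4.07 and 6.08. The list-wide floor was the background of 25.1% of pODO1 and 35.3% of 35S peaks under 1 kb, and of 9.0% and 14.0% at 1 to 5 kb. Pileup medians moved less, at 18 and 21 under 1 kb and 22 and 25 at 1 to 5 kb. The part of the low background in the high fold enrichment under 1 kb was not tested.

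Very strong peaks were a larger share of the set than of the whole lists, but not clearly so on longer scaffolds. A fold enrichment of at least 10 was reached by 93 of 9047 pODO1 peaks (1.03%, 95% Wilson interval 0.840 to 1.26), where 0.236% of the whole list reached it. In the 35S list 36 of 9645 peaks did so (0.373%, 0.270 to 0.516), where 0.0973% of the list did. Of these 79 pODO1 and 33 35S peaks lay on scaffolds spanning under 1 kb. At a span of at least 5 kb 8 of 3289 pODO1 peaks reached it (0.243%, 0.123 to 0.479), against 0.155% with a gene ID. For 35S it was 1 of 3051 (0.0328%, 0.00579 to 0.185), against 0.0680%. At that span the larger share was within counting error for pODO1 and not seen for 35S. Each of the 93 and each of the 36 lay on a scaffold of its own. A peak of the other list overlapped 88 of the 93 and 34 of the 36. Peaks this strong on scaffolds with a gene ID were shared about as often, 133 of 138 for pODO1 and 61 of 65 for 35S.

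The strongest member in both lists was on Peaxi162Scf43430. Its pODO1 peak, positions 762 to 890 (counted from 1, as in all positions here), had a fold enrichment of 20.3 and a −log10 q of 67.1, from a pileup of 69 over a background of 2.44. Its 35S peak, 774 to 889, had 15.6 and 61.4, from 74 over 3.80. The summits lay 5 bases apart, and the last peak of the scaffold ends at 890. It ranked second in the whole pODO1 list and sixth in the 35S list.

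Next in the pODO1 list came Peaxi162Scf23553 at 2857 to 3002, with a fold enrichment of 16.4 (pileup 48 over 1.99). Peaxi162Scf48868 at 6 to 162 also had 16.4 (42 over 1.63). Peaxi162Scf21752 at 169 to 417 had 15.2 (39 over 1.63), and Peaxi162Scf21839 at 238 to 508 had 15.1 (37 over 1.51). These 4 peaks all end where their scaffold's last peak ends, and all overlapped a 35S peak.

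In the 35S list the second strongest member was Peaxi162Scf01359 at 51300 to 51467, with a fold enrichment of 14.1 (pileup 56 over 3.04). This is the only one of the 5 on a scaffold of over 1 kb, which spans 58596 bases. Peaxi162Scf10788 at 13 to 161 had 13.4 (48 over 2.65), Peaxi162Scf53832 at 31 to 176 had 12.6 (45 over 2.65) and Peaxi162Scf19637 at 69 to 191 had 12.3 (44 over 2.65). The last 3 stood on the list-wide floor of the background, and each was shared with the pODO1 list.

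Taking both lists into account, the overlapping pair with the highest mean of its fold enrichments was again on Peaxi162Scf43430. Peaxi162Scf23553 followed with 16.4 in the pODO1 list and 10.5 in the 35S list, and summits 1 base apart. Peaxi162Scf21839 had 15.1 and 11.2 with summits 5 bases apart. Peaxi162Scf01359 was the exception in which 35S was higher, with 12.2 in the pODO1 list and 14.1 in the 35S list, 4 bases apart. Peaxi162Scf48868 had 16.4 and 9.16, 1 base apart. Between the lists a difference in fold enrichment was not read as one between constructs, since the depths and controls are unknown.

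A high pileup did not always mean a high fold enrichment. Chosen after their values were seen, the tallest members stood on Peaxi162Scf13012, Peaxi162Scf28374 and Peaxi162Scf00277. At 3550 to 3880 of Peaxi162Scf13012 the pODO1 pileup of 191 stood over a background of 71.2, a fold enrichment of 2.66. The overlapping 35S peak at 3573 to 3830 had a pileup of 179 over 123.9, a fold enrichment of 1.44. Peaxi162Scf28374 had 189 over 67.1 in the pODO1 list and 179 over 113.2 in the 35S list. Peaxi162Scf00277 had 186 over 72.0 and 177 over 124.6. A background of at least 20 was found at 183 of these pODO1 peaks (2.02%), against 405 (0.455%) on scaffolds with a gene ID, and at 371 35S peaks (3.85%), against 834 (0.886%).

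Peaks of this set were slightly narrower than the rest. The median width was 130 bases (quartiles 107 and 173; 95% interval of the median 129 to 131) in the pODO1 list, against 134 (107 and 183) on scaffolds with a gene ID. In the 35S list it was 122 bases (101 and 165; 121 to 123), against 129 (102 and 178). Under 1 kb the medians were 125 and 119 bases, and at 5 kb or more they were 133 bases, against 134, for pODO1 and 126 bases, against 129, for 35S. Widths of at least 500 bases were reached by 22 pODO1 and 19 35S peaks (0.243% and 0.197%), where 0.429% and 0.396% of the lists did. The widest were 758 bases on Peaxi162Scf01510 (pODO1) and 801 bases on Peaxi162Scf37474 (35S), while scaffolds with a gene ID held peaks of up to 4976 and 2251 bases.

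Part of the peaks began at the very start of their scaffold. A start within the first 50 bases of the scaffold was found for 1151 pODO1 peaks (12.7%) and 1393 35S peaks (14.4%), against 19 and 21 on scaffolds with a gene ID. Of these, 680 pODO1 and 892 35S peaks also ended at the last position of any peak, against 0 and 2. For the 0 of 88962 pODO1 peaks the upper limit of the 95% Wilson interval is 0.00432%. Span ends with the last peak, so the only peak of a scaffold ends there by definition. Scaffolds with a gene ID seldom had a single peak or a short span, so this contrast was largely set by the definition. A peak cannot extend past the end of its scaffold, so widths there are bounded by scaffold length.

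Density was high by the span measure. Per 10 kb of span there were 4.11 pODO1 peaks on scaffolds without a gene ID, against 0.758 with one, and 4.38 35S peaks, against 0.802. This is inflated where a scaffold is known only by a single peak, since its span then ends with that peak. At a span of 20 to 100 kb the density was 1.79, against 1.02, for pODO1 and 1.68, against 1.05, for 35S. At 100 kb or more it was 1.61, against 0.756, and 1.47, against 0.800. Without Peaxi162Scf01104, the scaffold with most members, the densities of that longest class were 1.44 and 1.28.

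A single peak per list was the rule, for 84.3% of the scaffolds with a pODO1 peak and 85.9% of those with a 35S peak, against 3.70% and 2.88% with a gene ID. Of the 7964 scaffolds 3852 (48.4%) had 1 peak in both lists together, against 33 of 1510 (2.19%) with a gene ID. Both lists had a peak on 3962 scaffolds (49.7%), only pODO1 on 1582 and only 35S on 2420. It took 1365 scaffolds to reach 50% of the members. The 169 scaffolds with at least 10 peaks held 26.8%, and the 10 with most peaks held 1314 peaks, or 7.03%.

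**Figure D3:**
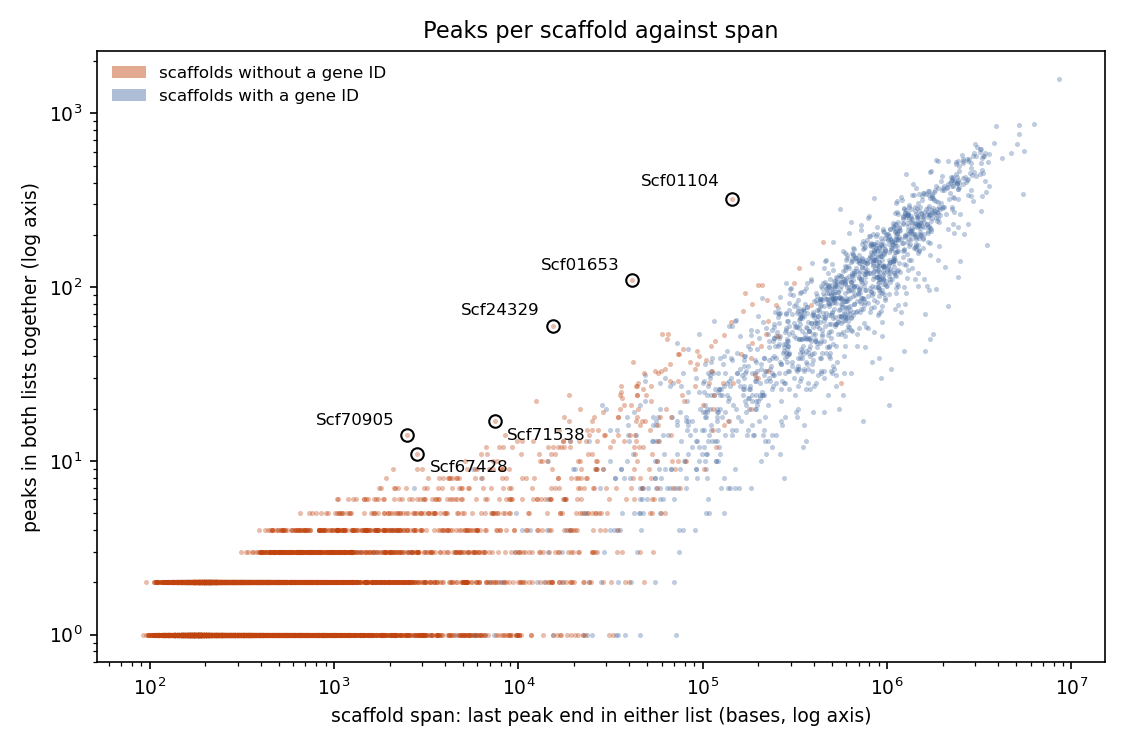
Peaks in both lists together against scaffold span in bases, both on log axes, 1 point per scaffold; 6 scaffolds without a gene ID are circled and named. Scaffolds with a gene ID form 1 band, while Peaxi162Scf01104 with 323 peaks over 143865 bases and the other circled scaffolds stand above it.

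Peaxi162Scf01104 held most members by far, 155 in the pODO1 list and 168 in the 35S list over a span of 143865 bases. pODO1 peaks covered 15.9% of that span and 35S peaks 16.7%. Its median pileup was 27 over a background of 5.29 for pODO1 and 36 over 8.36 for 35S, with median fold enrichments of 4.45 and 3.80. Of its peaks 86.5% (pODO1) and 80.4% (35S) were shared.

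The next scaffolds were longer and sparser. Peaxi162Scf00754 held 102 pODO1 and 81 35S peaks over 452034 bases, Peaxi162Scf00639 held 68 and 61 over 334010, and Peaxi162Scf01047 held 62 and 44 over 311037. Peaxi162Scf01154 held 52 and 51, Peaxi162Scf01349 held 50 and 53, and Peaxi162Scf01117 held 52 and 41. Peaxi162Scf01239 held 49 and 35, and Peaxi162Scf01095 43 and 37. These 8 had 3.41 to 5.52 peaks per 10 kb in both lists together, and between 37.1% and 55.8% of their pODO1 peaks were shared. The remaining one of the 10, Peaxi162Scf01653, packed 53 pODO1 and 57 35S peaks into 41272 bases.

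Among the 149 scaffolds without a gene ID that had at least 5 peaks in each list, the median density in both lists together was 4.82 per 10 kb (range 0.495 to 56.4). The 1339 such scaffolds with a gene ID had a median of 1.59 (0.204 to 7.40). At least 10 peaks per 10 kb were found on 18 of the 149 and on 0 of the 1339. Of the 18, however, 2 spanned 1 to 5 kb and 14 spanned 5 to 20 kb, where scaffolds with a gene ID contributed 0 and 1 to the 1339. The minimum of 5 peaks in each list also forces a high density on a short span. The 2 at 1 to 5 kb reached 10 per 10 kb by that minimum alone. At 20 to 100 kb the count was 1 of 81, against 0 of 65, and the median density 4.89, against 2.81. At 100 kb or more it was 1 of 40, against 0 of 1273, with medians of 2.56, against 1.56. The densest was Peaxi162Scf70905 (7 and 7 peaks in 2484 bases, 56.4 per 10 kb). It was followed by Peaxi162Scf24329 (29 and 31 in 15323 bases, 39.2), Peaxi162Scf67428 (5 and 6 in 2832 bases, 38.8), Peaxi162Scf01653 (26.7) and Peaxi162Scf71538 (7 and 10 in 7445 bases, 22.8).

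Summits came at nearly even steps, or multiples of a step, on Peaxi162Scf70905 and Peaxi162Scf24329. This pattern was singled out after the gaps between summits had been seen. On Peaxi162Scf70905 neighbouring pODO1 summits lay 345, 362, 343, 383, 322 and 379 bases apart. Its 35S summits lay 325, 377, 346, 364, 316 and 437 bases apart. All 7 pODO1 peaks overlapped a 35S peak there, so the 7 sites were common to both lists, and the median gap was 353.5 bases for pODO1 and 355 bases for 35S.

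The longer Peaxi162Scf24329 showed the same step and its multiples. Of 28 pODO1 gaps 18 measured 279 to 399 bases (median 352.5), 7 measured 681 to 730 (median 712) and 3 measured 1002 to 1096 (median 1051). No gap fell between 450 and 600 or between 800 and 950 bases. Of 30 35S gaps 22 measured 285 to 432 bases (median 350.5), 6 measured 683 to 744 (median 719) and 1 measured 1080, again with none between 450 and 600 or 800 and 950 bases. The remaining gap was 1394 bases. The gaps thus lay in separate groups in both lists.

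Peaxi162Scf67428 had pODO1 gaps of 659, 374, 325 and 356 bases and 35S gaps of 569, 665, 352, 334 and 368 bases. On Peaxi162Scf01653 26 of 52 pODO1 gaps (median of these 349.5 bases) and 29 of 56 35S gaps (361 bases) were of 250 to 450 bases. On Peaxi162Scf01104 these were 57 of 154 (366 bases) and 72 of 167 (359.5 bases). Medians within this range do not show a step, as they were 350 bases in both lists on scaffolds with a gene ID too. On Peaxi162Scf01653 and Peaxi162Scf01104 gaps of 450 to 600 bases, a narrower range, were fewer than those of 250 to 450 but not absent. They numbered 5 and 4 on Peaxi162Scf01653 and 20 and 19 on Peaxi162Scf01104. On Peaxi162Scf01104 gaps of 600 to 800 bases numbered 25 and 22, so no separate groups stood out there. Peaxi162Scf71538, the least dense of the 5 named for density, did not show the step, with median gaps of 725.5 (pODO1) and 612 bases (35S).

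Short gaps follow from choosing dense scaffolds. The scaffolds and the range of 250 to 450 bases were also chosen from the gaps themselves. Numbers of short gaps are therefore not compared with other scaffolds. Median gaps of all lengths were 1562 (pODO1) and 1592 bases (35S) on scaffolds without a gene ID, against 5714 and 5137 bases with one. A gap cannot exceed the span of its scaffold, and most scaffolds without a gene ID are short. These medians were not compared at a matched span, so they do not show closer spacing. Without the 5 scaffolds picked for their gaps (Peaxi162Scf70905, Peaxi162Scf24329, Peaxi162Scf67428, Peaxi162Scf01653 and Peaxi162Scf01104) the set kept a median fold enrichment of 4.57 (pODO1) and 3.96 (35S), and a shared percentage of 59.7 and 56.2.

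**Figure D4:**
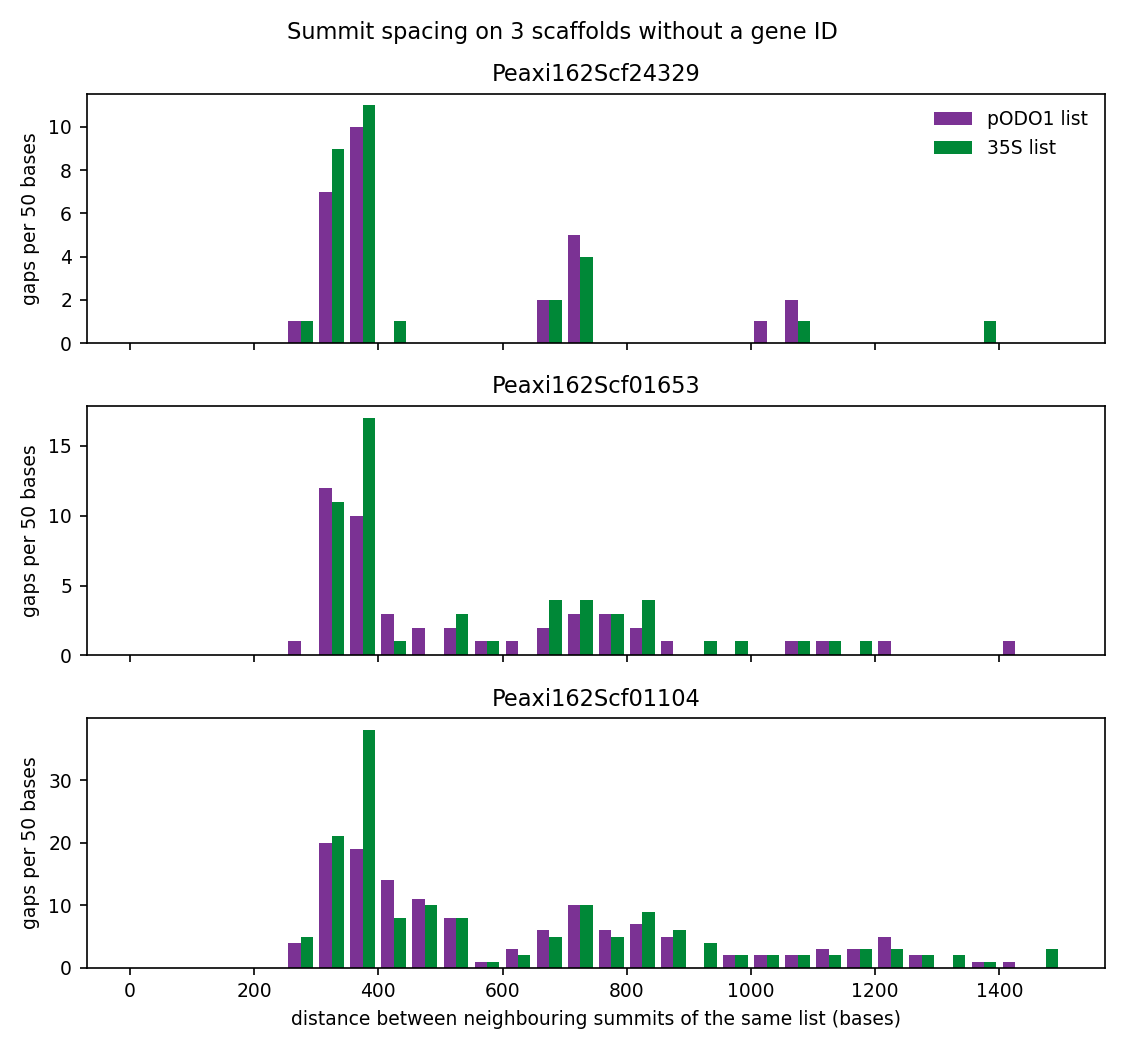
Distances in bases between neighbouring summits of the same list, counted in steps of 50 bases, on 3 scaffolds without a gene ID, for the pODO1 list and the 35S list; gaps of 1500 bases or more are not drawn. On Peaxi162Scf24329 the gaps stand in groups near 352.5, 712 and 1051 bases (pODO1 medians), and on the other 2 scaffolds bars between 250 and 450 bases are the tallest.

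Sharing between the lists was more frequent in this set. A pODO1 peak counts as shared when at least 1 base overlaps a 35S peak, and the reverse. Of these pODO1 peaks 5469 of 9047 were shared (60.5%, 95% Wilson interval 59.4 to 61.5), against 43.3% (43.0 to 43.6) on scaffolds with a gene ID, where 44.9% of the whole list was. Of these 35S peaks 5490 of 9645 were shared (56.9%, 55.9 to 57.9), against 41.1% (40.8 to 41.4), where 42.5% of the whole list was. Shared members had a higher pileup than others of the set, with medians of 20 and 16 for pODO1 and 27 and 18 for 35S. The same direction held on scaffolds with a gene ID, with 15 and 12 for pODO1 and 19 and 15 for 35S.

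On short scaffolds the other list covered much of the span. Under 1 kb, 35S peaks covered 35.9% of the span and pODO1 peaks 31.6%, and the shared percentage was 65.4 for pODO1, against 69.2 of the 13 peaks with a gene ID, and 55.2 for 35S, against 56.3 of the 16. At 1 to 5 kb it was 60.2, against 59.1, for pODO1 and 61.5, against 52.0, for 35S. At 5 to 20 kb it was 58.3, against 58.0, and 62.9, against 43.1. Few peaks with a gene ID lie in these classes, and their intervals take in the values of the set at spans under 5 kb in both lists and at 5 to 20 kb for pODO1. In 2915 cases a scaffold held exactly 1 peak of each list, over a median span of 258 bases. The peaks overlapped in 2807 of them (96.3%), with summits a median of 13 bases apart. On scaffolds with a gene ID they overlapped in 19 of 21 (90.5%), over a median span of 2378 bases. Peaks of these widths have little room to lie apart on a span of 258 bases, so the overlap there was nearly set in advance. At 20 to 100 kb, where the other list covered 2.48% (35S) and 2.78% (pODO1) of the span, 53.9% (51.2 to 56.6) of pODO1 peaks were shared, against 49.6% (46.3 to 53.0) with a gene ID. For 35S peaks the shares were 57.6% (54.8 to 60.4), against 48.4% (45.1 to 51.7).

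At 100 kb or more 50.8% of pODO1 peaks were shared, against 43.2%, and 55.9% of 35S peaks, against 41.0%. Peaxi162Scf01104 weighed on the first of these. Without it the pODO1 share was 45.8%, with an interval of 42.9 to 48.8 that takes in the 43.2% of scaffolds with a gene ID. The 35S share without it was 51.8% (48.7 to 54.9), above the 41.0%.

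Sharing went with fold enrichment differently in each list. In the lowest quartile of the pODO1 list 44.5% of these peaks were shared, and then 54.2%, 60.8% and 73.3% in the quartiles above, against 34.1%, 37.6%, 42.9% and 59.9% on scaffolds with a gene ID. In the 35S list the shares from the lowest to the highest quartile were 58.2%, 52.6%, 52.0% and 60.8%, against 39.2%, 36.02%, 37.9% and 52.0%. The set was above the rest in each quartile of both lists, but the quartiles pool all spans. Under 1 kb, where the other list covered much of the span, lay 49.9% (pODO1) and 55.6% (35S) of the set. With a gene ID only 13 and 16 peaks lay there, and quartiles were not compared at a matched span. Within the lowest quartile the set's median pileup was 19 for pODO1, against 11, and 25 for 35S, against 16. Peaks of like fold enrichment thus differed in pileup.

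**Figure D5:**
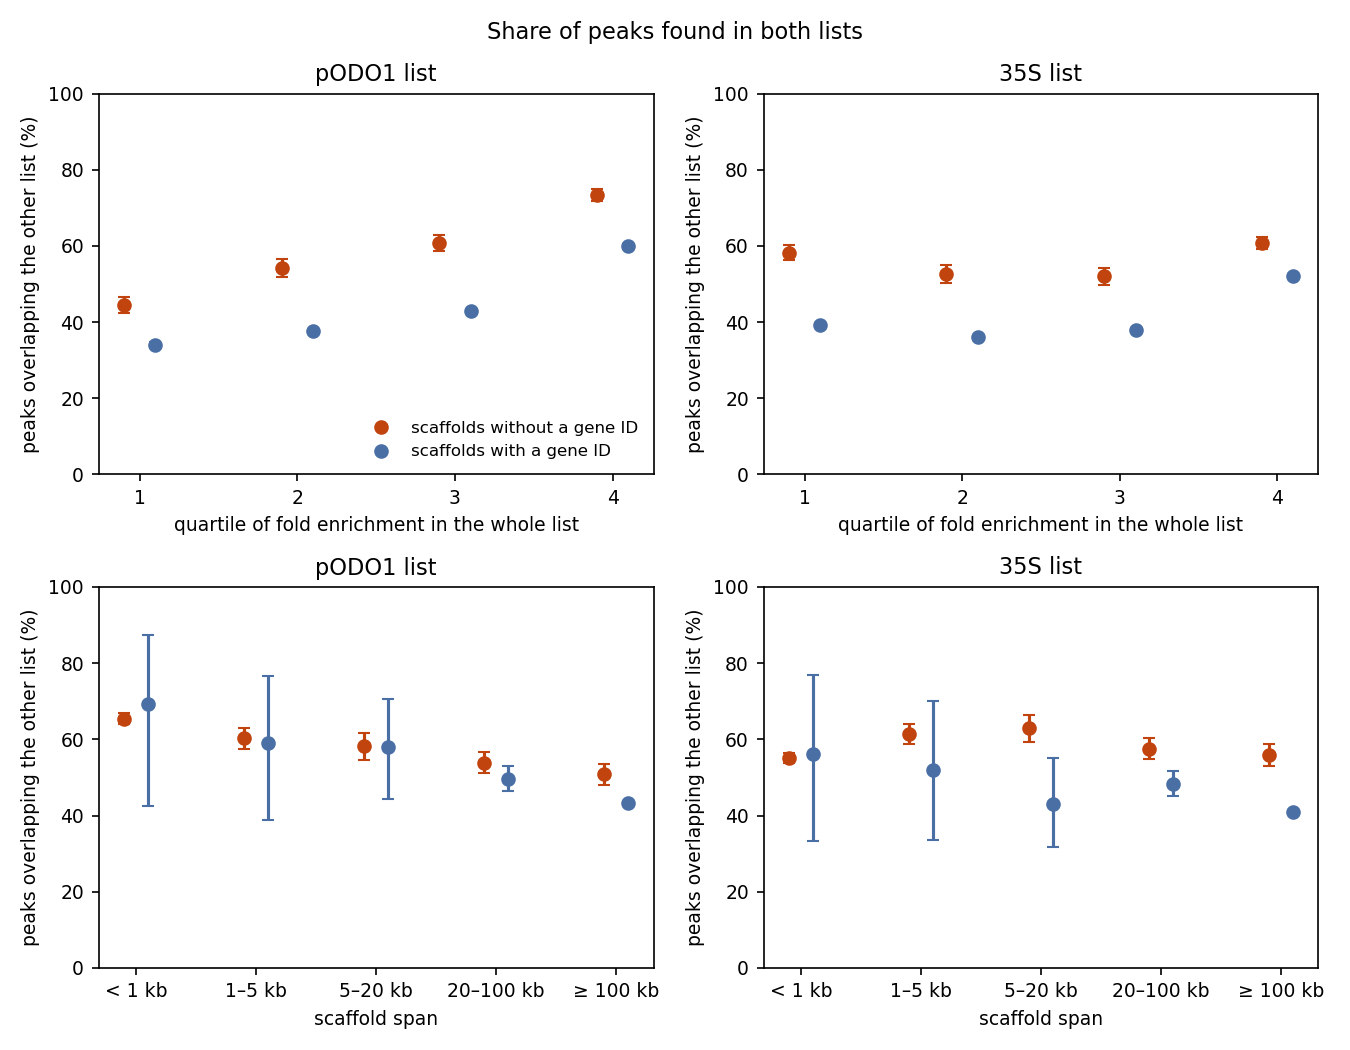
Percentage of peaks that overlap a peak of the other list, by quartile of fold enrichment in the whole list (top) and by scaffold span (bottom), with pODO1 at left and 35S at right; points are shares of peaks and bars 95% Wilson intervals, covering counting error only. Points of scaffolds without a gene ID are higher in each fold quartile, for example 73.3% against 59.9% in the highest pODO1 quartile. The quartiles pool all spans. Under 20 kb the intervals of scaffolds with a gene ID are wide.

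Summits of overlapping peaks lay closer together than on scaffolds with a gene ID. The median distance between summits was 15 bases in 5521 overlapping pairs, against 29 bases in 38976 pairs on scaffolds with a gene ID, and 91.7% were within 100 bases, against 84.1%. At 20 to 100 kb the medians were 17 bases (697 pairs) and 27 bases (431 pairs). The pODO1 fold enrichment was a median of 1.24 times that of 35S, against 1.20 times, and was the higher of the pair in 77.4% of pairs, against 74.4%. Across pairs the Spearman correlation of the fold enrichments was 0.63, against 0.42, and that of the pileups 0.88, against 0.75. Of the 5521 pairs, however, 2969 lay on spans under 1 kb. At 20 to 100 kb the correlations were closer, 0.57 against 0.50 for fold enrichment and 0.91 against 0.87 for pileup. At 100 kb or more, with Peaxi162Scf01104 included, they were 0.56 against 0.42 and 0.89 against 0.74. Pairs share the libraries, and mappability and base composition were not known, so these correlations are descriptions.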

How the data were processed

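For each ChIP construct the authors deposited 1 peak list of 10 columns with no header line, laid out as MACS2 does. The submitters' processing notes name cutadapt, Bowtie2 and MACS2 among the tools, with no versions or roles. Not given in the sources used here are caller settings, control, pooling and genome build, and scaffold names begin with Peaxi162. The deposited fold enrichment is a ratio per peak, and the deposited −log10 p and −log10 q are the caller's own. The deposited score column was not used further. Starts, ends and summit offsets are in bases. The authors' read counts per gene ID served only for the IDs (35812 on 1961 scaffolds) and, in 1 alternative, for whether an ID had a read. A single ID with letters before its number was assigned to the scaffold that its name begins with.

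Pileup and background were solved from fold enrichment and −log10 p with the MACS2 formulas, trying whole numbers up to 400, and the solver was tested on simulated data. The 95% interval of a median is the exact binomial one from order statistics, that of a density the exact Poisson one, and that of a share Wilson's. Tools were pandas 2.3.3, NumPy 2.4.6 and SciPy 1.17.1 under Python 3.11.15, with matplotlib 3.10.9 for plots. Named by rule were the 5 peaks of highest fold enrichment per list, the 5 shared pairs of highest mean fold enrichment, the 10 scaffolds with most peaks and the 5 densest with at least 5 peaks in each list. Members, classes and lists were chosen with earlier results of these data known. Duplicate reads are unknown, so intervals cover counting error only.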

Additional observations from a re-analysis of the deposited data

How the results depend on the processing

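Values are given for pODO1 and then 35S; those not printed moved by less than their 95% interval (counts, less than 1.5 times). A −log10 q of at least 5 in both lists left 5736 and 5462 members, with median fold enrichments of 5.27 and 4.66, densities of 2.60 and 2.48 per 10 kb and a pODO1 share in common of 54.1%. Peaks with a fold enrichment of 4 or more numbered 5961 and 4559, with medians of 5.20 and 4.94, median widths of 127 and 118 bases, densities of 2.71 and 2.07 and shares of 41.6% and 54.4%. The minimum on fold enrichment raises its median by construction. Both minimums lower the density by construction, as peaks are dropped while the span is kept. With only scaffolds spanning at least 5000 bases there were 3289 and 3051 members, with medians of 4.20 and 3.54, widths of 133 and 126, densities of 1.83 and 1.69 and shares of 53.7% and 58.2%. The density falls there by construction, as scaffolds known by 1 peak end are gone. When only IDs with a read counted, 8108 scaffolds were without one, and the medians were 4.505 and 3.84, the densities 2.84 and 3.0 and the shares 58.1% and 55.1%. When only IDs written with a g counted the densities were 3.91 and 4.17, and without the 10 scaffolds with most peaks 4.23 and 4.57. When sharing required 0.5 of the shorter peak, 59.3% and 55.9% were shared, and when it required summits within 100 bases, 56.0% and 52.5%. Other causes of these shifts were not tested. No paired analysis was possible because each ChIP construct has 1 library and no RNA comparison was made. Library depth is unknown, so an unlisted site is not shown to be unbound.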

Other observations

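Scaffold numbers ran with size in these lists. Scaffolds numbered 10000 or higher made up 6724 of the 7964 without a gene ID, with a median span of 258 bases, and held 5309 pODO1 and 6071 35S peaks. Only 39 scaffolds with a gene ID had such numbers. Among scaffolds numbered below 1000 that had a peak, 10 carried no gene ID, with 296 pODO1 and 265 35S peaks, against 959 that carried one.

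A first base of 1 was found for 19 pODO1 and 15 35S peaks, all on scaffolds without a gene ID.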
